A study of Mus musculus with 4 samples.

Results

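The 10 neuropeptide genes of the mouse olfactory bulb examined here, Trh, Gal, Penk, Cck, Nmb, Vip, Sst, Crh, Tac1 and Nppa, were followed one by one through the deposited Visium count table. They were chosen by symbol, as peptides known from bulb interneurons and tufted cells, and all 10 had a row among the 32285 genes of the table. The choice of these genes, and of the marker gene lists used below, was made with earlier results of these data known. Of these, 9 passed the minimum of 500 unique molecular identifiers (UMIs) over all libraries and 3 in each. Tac1, with 443 UMIs, did not pass and is described without being counted.

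The study placed coronal sections of fresh-frozen olfactory bulb from 1 control mouse and 1 mutant mouse on Visium capture areas, where each barcoded spot collects RNA from a small patch of tissue that may hold several cells. The labels give 1 control area with 2 serial sections and 1 with a single section, and 2 mutant areas with 2 sections each, all from mice killed at 5 months. In the mutant mouse, VEGF was blocked, by the label at E13.5, with a transgenic soluble VEGFR1 that was tetracycline-regulated through camk2a-tTa and brain-specific, and the design text describes a bulb degenerated by 28%. The labels do not say whether the control mouse carried either transgene, and the spot barcodes end in the numbers 1 to 4, which match no label. The 4 libraries are therefore given by number, with no condition attached and no comparison of control with mutant.

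Neuropeptides are cut from larger precursors in the secretory pathway, stored in dense-core vesicles and released beside a fast transmitter such as GABA, glutamate or dopamine. In the olfactory bulb, sensory axons end in the glomeruli on mitral and tufted cells, the output neurons, and are surrounded by periglomerular interneurons, many of them dopaminergic. Granule cells, the most numerous interneurons, lie deep to the mitral cell layer and receive new members throughout life as neuroblasts that migrate in from the forebrain.

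After spots under 500 UMIs were set aside, 4616 of 4713 spots remained, 1662, 715, 1296 and 943 in libraries 1 to 4, with 13304973, 5223890, 12533691 and 9533952 UMIs. The median spot held between 7186 and 9829 UMIs. Bulb markers were present in all 4 libraries, with the mitral and tufted cell marker Cdhr1 between 319 and 775 counts per 1000000 UMIs (CPM) and the sensory axon marker Omp between 34.5 and 115 CPM. Markers of forebrain excitatory neurons (Nrgn and Slc30a3 among them, all detected in each library) summed to 139, 177, 1440 and 1520 CPM in libraries 1 to 4. The labels name no tissue other than olfactory bulb. All 5 markers of reactive glia and all 5 of phagocytes were detected in each library, and summed to between 189 and 1963 CPM and between 75.4 and 816 CPM, highest in library 3 and next in library 4. Their part in the results below was not tested. The libraries share 62 to 651 spot barcodes by pair, of 2796 distinct ones, since every capture area reuses the same array positions. Every pair differed beyond sampling noise, with a chi-square per gene of at least 4.12. Intervals below are 95% intervals for counting error only, and no replicate error can be given.

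The promoters of 3 of the peptides are shown because they stand for the patterns described below. Trh was higher in libraries 1 and 2, Sst was higher in libraries 3 and 4, and Vip had nearly the same level in all 4. The sequences are the 250 bases before the annotated start in RefSeq, build GRCm38.p6, 5′ to 3′ on the strand of the gene. Capitals mark the letters TGACG or their reverse complement CGTCA, the core of the cyclic AMP response element, whose full form TGACGTCA holds both and is known as background from the Sst gene.
Trh (chr6:92244651-92244900, minus strand): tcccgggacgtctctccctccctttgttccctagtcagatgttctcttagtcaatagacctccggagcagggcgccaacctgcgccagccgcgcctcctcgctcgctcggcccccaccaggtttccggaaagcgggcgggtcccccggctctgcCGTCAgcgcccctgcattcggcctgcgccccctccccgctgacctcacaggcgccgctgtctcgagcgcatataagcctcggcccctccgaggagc
Vip (chr10:5638968-5639217, plus strand): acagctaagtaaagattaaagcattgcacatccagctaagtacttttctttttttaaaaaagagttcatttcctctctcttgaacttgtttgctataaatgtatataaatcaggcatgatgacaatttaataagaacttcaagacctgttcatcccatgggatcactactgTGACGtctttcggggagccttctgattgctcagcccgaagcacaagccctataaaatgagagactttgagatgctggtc
Sst (chr16:23890845-23891094, minus strand): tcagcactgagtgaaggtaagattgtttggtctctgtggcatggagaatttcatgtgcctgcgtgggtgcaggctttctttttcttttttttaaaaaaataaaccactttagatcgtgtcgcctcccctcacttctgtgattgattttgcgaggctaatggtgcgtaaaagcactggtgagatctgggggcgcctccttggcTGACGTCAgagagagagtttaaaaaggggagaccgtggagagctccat
The full form began 48 bases before the start of Sst and was found in no other of the 8 members with a promoter entry, against 588 of 32851 promoter windows (1.79%). The core began 96 bases before the start of Trh and 79 bases before that of Vip. Over windows that add the 50 bases after the start, and counting both strands, 7 of the 8 members held the core, against 6837 windows (20.8%), and Nmb was the exception. These are matches of letters, and binding at them was not measured.

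Of the 9 members tested, 6 (Trh, Gal, Nmb, Sst, Crh and Nppa) differed by more than 2-fold between their highest and lowest library. Of all 9852 genes past the same filter, 773 did so (7.85%). The median ratio of highest to lowest library was 5.06 over the 9 members and 1.24 over all genes tested. Since the members were chosen with earlier results of these data known, the shares over all genes are a description and not a test. Penk, Cck and Vip stayed below 2-fold. In sections, fewer cells of a type and less RNA per cell cannot be told apart, and the levels are shares of each library's UMIs.

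**Figure D1:**
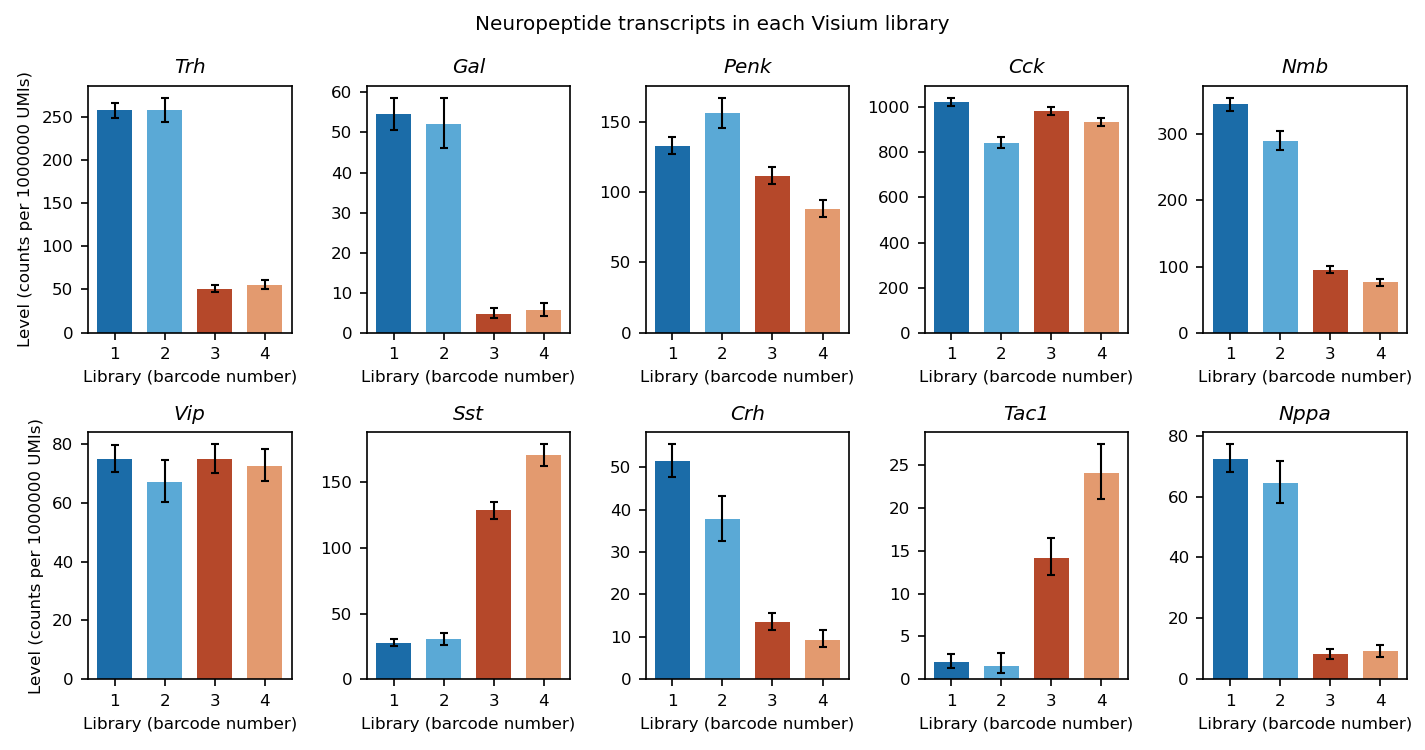
Level of each neuropeptide transcript in counts per 1000000 UMIs (vertical axis, its own scale for each gene) in libraries 1 to 4 (horizontal axis), as bars with exact Poisson 95% intervals. Trh, Gal, Nmb, Crh and Nppa stand highest in libraries 1 and 2, Sst and Tac1 in libraries 3 and 4, and the bars of Vip lie between 67.2 and 75.0.

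Trh, Gal and Nppa were each higher in spots rich in dopaminergic markers. Trh encodes the precursor of thyrotropin-releasing hormone (ENSMUSG00000005892), known from the hypothalamus as the driver of thyrotropin release and also made by neurons of the glomerular layer. In libraries 1 to 4 its level was 258 CPM (249 to 266), 258 (245 to 272), 51.1 (47.2 to 55.2) and 55.7 (51.1 to 60.6). The intervals of libraries 1 and 2 overlapped, as did those of libraries 3 and 4, and the ratio of the highest library to the lowest was 5.06 (4.60 to 5.56).

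Gal encodes galanin (ENSMUSG00000024907), a peptide that mostly inhibits neurons through G-protein-coupled receptors. It was measured at 54.6 CPM (50.7 to 58.7), 52.1 (46.1 to 58.6), 4.71 (3.58 to 6.07) and 5.56 (4.16 to 7.27) in libraries 1 to 4, and its ratio of 11.6 (8.88 to 15.4) was the widest of the 9 members tested. Nppa encodes atrial natriuretic peptide (ENSMUSG00000041616), best known as a heart hormone that lowers blood pressure. Its values were 72.5 CPM (68.0 to 77.3), 64.5 (57.8 to 71.8), 8.14 (6.64 to 9.88) and 9.13 (7.31 to 11.3), a ratio of 8.91. For both genes libraries 1 and 2 overlapped, libraries 3 and 4 overlapped, and the former lay above the latter.

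To place each peptide in the tissue without spot positions, the spots of a library were ranked by the share of their UMIs that came from a marker list, and the richest 10% were set against the rest of the same library. None of the 10 peptides is in a marker list. A peptide was called where it was over 2-fold higher in the rich spots of each of the 4 libraries. Of 153 pairs of a member and one of 17 lists, 5 were called, and 3 of them lay in the spots rich in markers of dopaminergic periglomerular neurons (Th, Ddc, Slc6a3 and Slc18a2), where 12 of 9852 genes were called (0.122%). No member was called in the 14 lists other than the dopaminergic, mitral and tufted cell and neuroblast lists. Of those not described further below, the share of genes called was 2.85% for sensory axons, 4.03% for ensheathing glia, 3.79% for leptomeninges, 0.0203% for forebrain interneurons and 1.81% for reactive glia. It was 1.16% for phagocytes, 0.944% for nasal mucosa, 1.28% for red blood cells, 0.162% for inhibitory transmission, 0.102% for neurons in general and 0% for striatal projection neurons. In the dopaminergic-rich spots Trh reached 633, 774, 160 and 182 CPM in libraries 1 to 4, against 209.6, 200.02, 41.7 and 44.2 CPM in the rest. This is 3.02-, 3.87-, 3.83- and 4.12-fold. Gal was 2.35-, 2.51-, 3.30- and 2.88-fold higher, although on 13 and 11 UMIs in the rich spots of libraries 3 and 4. Nppa was 2.46-, 3.18-, 2.503- and 3.95-fold higher, on 18 and 23 UMIs in those libraries. The measured fold of each of these peptides over the rest of the tissue was thus above 2 in libraries 3 and 4 as well, where their overall levels were several-fold lower. For Gal, counting error did not keep the fold above 2 in any library, with intervals of 1.97 to 2.80, 1.85 to 3.36, 1.64 to 6.21 and 1.34 to 5.68. The interval of Nppa in library 3 was 1.42 to 4.20. Its other intervals, and all those of Trh, lay above 2.

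When spots were first thinned to 2000 UMIs each and ranked again, the lowest of the 4 folds was 2.23 for Trh and 2.07 for Nppa. Gal had 2.04-, 2.26-, 2.18- and 1.23-fold and lost the call. Nppa, at 2.07-, 2.76-, 2.77- and 3.07-fold there, was also higher in mitral and tufted cell-rich spots of libraries 3 and 4. After thinning it had 0.755-, 0.749-, 3.04- and 2.73-fold in those spots of libraries 1 to 4. In libraries 3 and 4 its rise was thus not particular to the dopaminergic list. Without thinning, Gal in mitral and tufted cell-rich spots was 1.07-, 1.15- and 1.37-fold higher in libraries 1 to 3 but 5.85-fold (3.28 to 10.4) higher in library 4, on 26 of its 53 UMIs there, more than in the dopaminergic spots of that library. The other 6 members tested were not called in the dopaminergic spots. In the same ranking, Penk, Vip, Sst and Crh were below 1-fold in the dopaminergic spots of libraries 1 and 2, and Nmb lay between 1.002 and 1.15 in all 4 libraries.

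**Figure D2:**
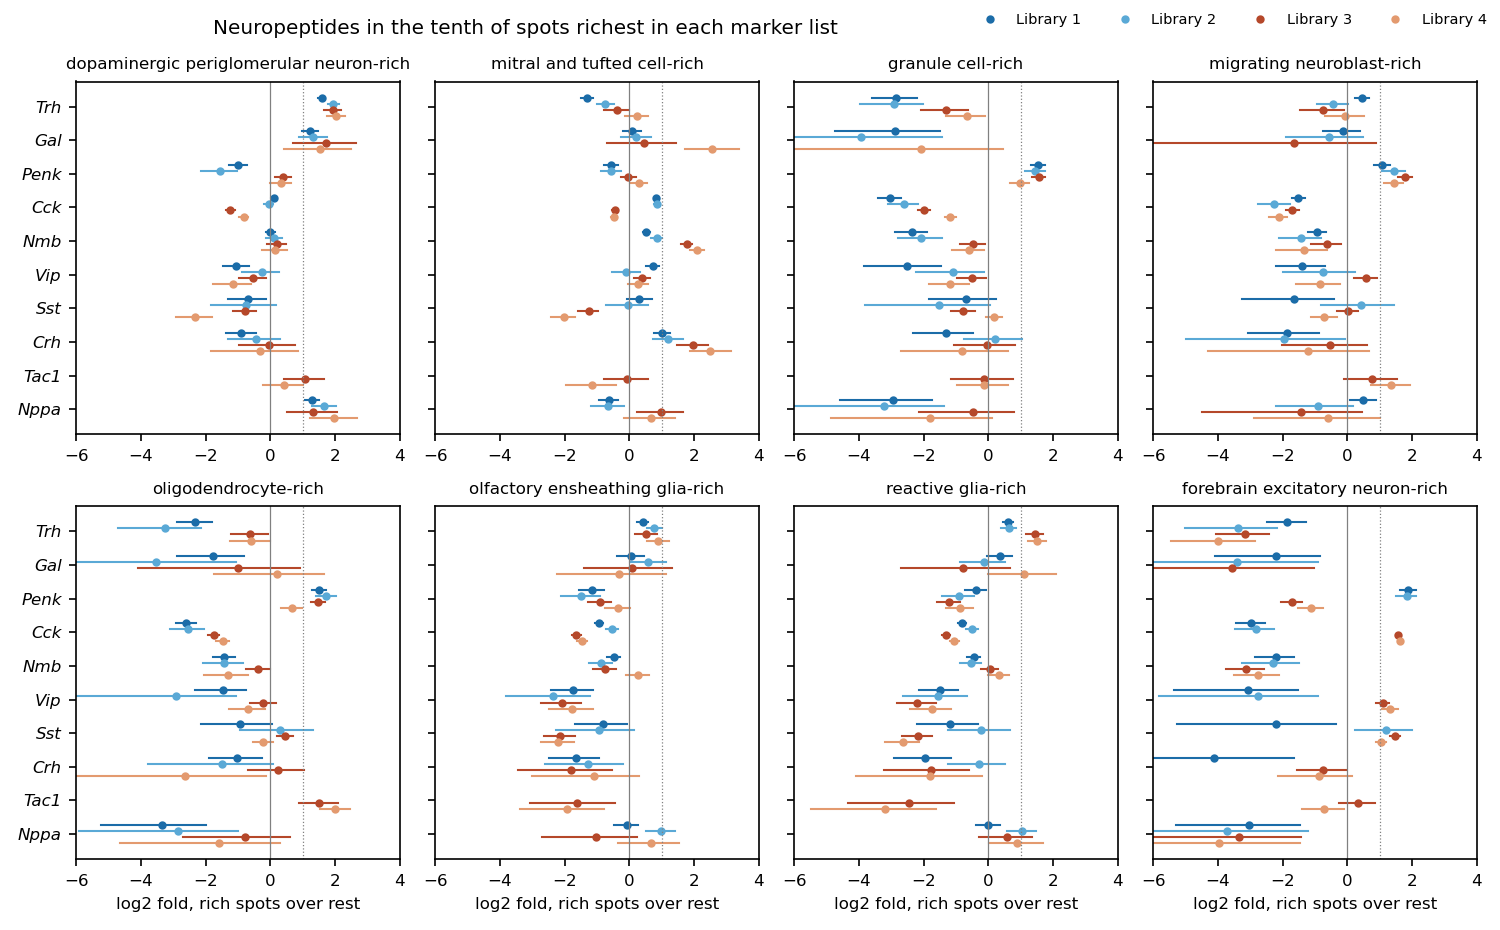
Fold of each neuropeptide between the 10% of spots richest in a marker list and the rest of the library, on a log2 scale (horizontal axis), for 8 lists (panels) and 4 libraries (colours), with exact 95% intervals; the dotted line marks 2-fold, and libraries with fewer than 30 UMIs of the gene and folds of 0 are not drawn. The points of Trh, Gal and Nppa lie right of the dotted line in dopaminergic periglomerular neuron-rich spots in every library, although some intervals of Gal and Nppa cross it. Cck and Vip change sides between libraries in forebrain excitatory neuron-rich spots.

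Trh, Gal and Nppa were also set against Th, which encodes tyrosine hydroxylase, the rate-limiting enzyme of dopamine synthesis and the marker of these neurons. This reference was chosen after the values were seen. Th was measured at 584, 531, 123 and 116 CPM. For every 100 Th UMIs there were 44.1 (42.4 to 45.95), 48.6 (45.5 to 51.9), 41.6 (37.9 to 45.7) and 48.1 (43.2 to 53.3) Trh UMIs in libraries 1 to 4, a ratio of highest to lowest of 1.17. Trh thus kept nearly the same proportion to Th while its own level differed 5.06-fold. This holds for Th alone, since Trh was not set against the other markers of the list, all below the filter. Slc6a3 and Slc18a2 differed 4.64- and 4.36-fold between libraries, but Ddc, at 10.8, 10.7, 5.74 and 6.40 CPM, differed 1.88-fold and so less than Trh. Gal did not, with 9.35, 9.80, 3.84 and 4.80 UMIs per 100 Th UMIs, a ratio of 2.55. Nppa, with 12.4, 12.1, 6.64 and 7.87, had a ratio of 1.87.

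**Figure D3:**
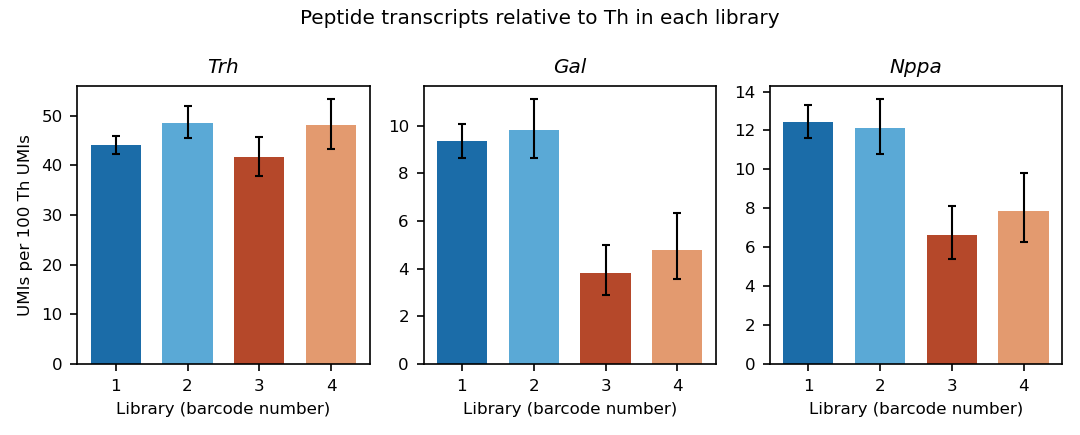
UMIs of Trh, Gal and Nppa per 100 UMIs of Th (vertical axis, its own scale for each gene) in libraries 1 to 4, as bars with exact 95% intervals. Trh stays between 41.6 and 48.6, whereas in libraries 3 and 4 Gal is at 3.84 and 4.80 and Nppa at 6.64 and 7.87.

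The share of spots with a Trh UMI differed between libraries. In spots thinned to 2000 UMIs, which leaves out 233, 89, 42 and 20 shallower spots of libraries 1 to 4, a Trh UMI was present in 34.0% (31.6 to 36.5, Clopper-Pearson), 30.03%, 9.65% and 8.78% of spots, against 57.9%, 52.6%, 28.2% and 28.2% before thinning. Thinned spots from the dopaminergic list's richest 10% held one in 69.8%, 78.6%, 24.0% and 22.0%, and those from the granule cell list's richest 10%, where Trh is not known to be made, in 7.23%, 5.77%, 4% and 3.19%. Median depths before thinning were 9586, 7586.5, 7307 and 8598 UMIs in the former and 3862, 3410, 5347 and 6669.5 UMIs in the latter. The shares of the dopaminergic set were above those of the granule cell set in each library. Of the granule cell list's richest spots, 1.80%, 1.39%, 17.7% and 13.7% in libraries 1 to 4 were also among the dopaminergic list's richest. The source of the Trh UMIs in the granule cell-rich spots was not tested.

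The genes whose pattern over spots was most like that of Trh, by the lowest of the 4 libraries' Pearson r of log counts, were Mt1 (r at least 0.33), Lcat (0.32) and Mt2 (0.31). Mt1 and Mt2 encode metallothioneins, which bind zinc, and Lcat encodes a cholesterol-esterifying enzyme. For Nppa they were Calb2 (0.17), Lcat (0.14) and Th (0.14), and for Gal they were Calb2 (0.14), Islr (0.12) and Doc2g (0.12). Calb2 encodes calretinin, a calcium-binding protein of another class of periglomerular cells. These r values are descriptions over spots that share a library and its depth. In libraries 3 and 4 Trh was also higher in spots rich in reactive glia markers, by 2.69- and 2.84-fold, against 1.53- and 1.55-fold in libraries 1 and 2. Of the dopaminergic list's richest spots, 12.0%, 6.94%, 9.23% and 17.9% in libraries 1 to 4 were also among the reactive glia list's richest, which make up 10% of all spots. Their overlap with the oligodendrocyte list's richest was 1.20%, 0%, 26.9% and 15.8%, and with the granule cell list's 1.80%, 1.39%, 17.7% and 13.7%. The make-up of the dopaminergic-rich spots thus differed between libraries, and its part in their folds was not tested.

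Cck, Nmb and Crh are described here against markers of mitral and tufted cells. A spot may hold several cells, so these folds do not tell which cells make a peptide. Cck encodes cholecystokinin (ENSMUSG00000032532), a peptide of tufted cells in the bulb and of many cortical neurons elsewhere. At 1026, 843, 985 and 935 CPM it differed by 1.22-fold between libraries. Its placement differed between libraries. In the spots richest in mitral and tufted cell markers (Cdhr1, Tbx21, Eomes, Slc17a6, Doc2g and Lhx5) Cck was 1.79- and 1.82-fold higher in libraries 1 and 2, but 0.740- and 0.718-fold in libraries 3 and 4. In the spots richest in forebrain excitatory markers, where 0.508% of genes and no member were called, it was 0.127- and 0.140-fold in libraries 1 and 2 and 2.97- and 3.07-fold in libraries 3 and 4. With thinning before ranking, the folds in libraries 1 to 4 were 1.54, 1.49, 0.722 and 0.686 in mitral and tufted cell-rich spots and 0.865, 0.438, 2.99 and 2.75 in the forebrain-rich ones.

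Spots with at least 2000 CPM of the forebrain list, called forebrain-marked and set by a limit chosen after the values were seen, numbered 25, 6, 244 and 201 in libraries 1 to 4, or 1.504%, 0.839%, 18.8% and 21.3% of spots. In libraries 1 and 2 they held 34405 and 9941 UMIs in all, so that a few list UMIs in shallow spots were enough to reach the limit. In libraries 3 and 4 these spots carried 60.3% and 60.5% of all Cck UMIs. Outside them the level of Cck was 1028, 844, 541 and 521 CPM, a ratio of 1.97 (1.90 to 2.05), and libraries 3 and 4 were the lowest. In those libraries, then, Cck cannot be taken as a peptide of bulb tufted cells alone. Outside these spots 6 of the 9 members, the same 6 as before, were over 2-fold between libraries, against 587 of 9375 genes (6.26%).

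**Figure D4:**
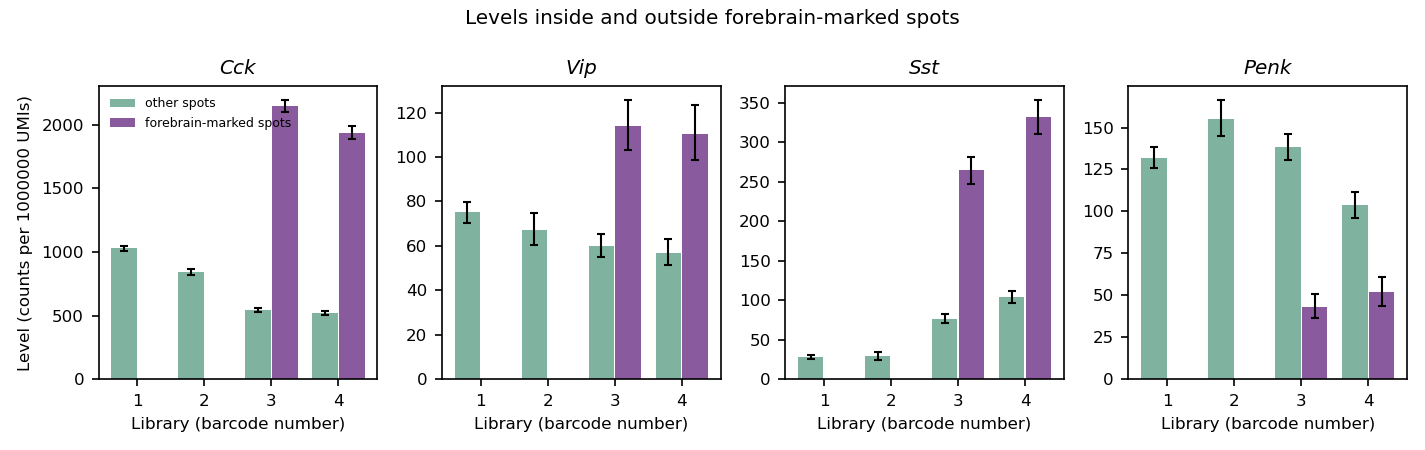
Levels of Cck, Vip, Sst and Penk in counts per 1000000 UMIs (vertical axis, its own scale for each gene) outside and inside spots with at least 2000 CPM of forebrain excitatory markers, by library, with exact Poisson 95% intervals; libraries 1 and 2 hold too few such spots, 25 and 6, for a bar. Inside these spots Cck, Vip and Sst are higher than outside and Penk is lower.

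Nmb encodes neuromedin B (ENSMUSG00000025723), a peptide of the bombesin family. It was measured at 345 CPM (336 to 356), 291 (276 to 306), 95.4 (90.1 to 101) and 75.9 (70.5 to 81.7) in libraries 1 to 4, a ratio of 4.55, and no interval overlapped another. In mitral and tufted cell-rich spots it was 1.44- and 1.80-fold higher in libraries 1 and 2 and 3.41- and 4.25-fold higher in libraries 3 and 4, so that it passed 2-fold in the latter 2 libraries and was not called. Its most similar genes were Cdhr1 (r at least 0.47), Doc2g (0.42) and Rab3b (0.41), of which Cdhr1 and Doc2g are in the mitral and tufted list. Per 100 Cdhr1 UMIs there were 44.6, 43.0, 27.4 and 23.8 Nmb UMIs in libraries 1 to 4. Nmb thus differed more between libraries than this marker did, which itself differed 2.43-fold. Of 5 markers of that list past the filter, 3 (Cdhr1, Eomes and Doc2g) were over 2-fold, against 7.85% of all genes tested. The other markers, Tbx21 (56.7, 44.0, 56.2 and 44.1 CPM) and Slc17a6 (39.3, 29.1, 24.5 and 30.8 CPM), were not.

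Crh encodes corticotropin-releasing hormone (ENSMUSG00000049796), which drives the pituitary stress response and is also made locally in the bulb. Its level was 51.5 CPM (47.7 to 55.5), 37.7 (32.6 to 43.4), 13.48 (11.5 to 15.7) and 9.34 (7.497 to 11.49) in libraries 1 to 4, and its highest value was 5.52-fold its lowest. No intervals overlapped, although those of libraries 3 and 4 nearly met. In mitral and tufted cell-rich spots Crh was 2.03-, 2.30-, 3.90- and 5.68-fold higher and was called, as were 51 of 9852 genes (0.518%). After thinning before ranking the folds were 1.65, 1.64, 3.21 and 4.68 and the call was lost. The genes most like Crh over spots were Doc2g (r at least 0.19), Vip (0.18) and Ntng1 (0.18).

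Penk is known in the bulb as a peptide of granule and periglomerular cells. It encodes proenkephalin (ENSMUSG00000045573), the precursor of the enkephalins, which act on opioid receptors. In libraries 1 to 4 its level was 133 CPM (127 to 140), 156 (146 to 167), 112 (106 to 118) and 88.4 (82.6 to 94.6), so that no intervals overlapped and the range was 1.77-fold. In the spots richest in granule cell markers (Meis2, Synpr, Tshz1 and Pcp4) it was 2.93-, 2.72-, 2.96- and 1.97-fold higher, and library 4 alone kept it from the call, which 83 of 9852 genes had (0.842%). In oligodendrocyte-rich spots it was 2.84-, 3.31-, 2.79- and 1.58-fold higher. Without library 4, Penk would be called in the granule cell and the oligodendrocyte lists, the latter with a background of 0.305% in all 4. In spots rich in markers of migrating neuroblasts it was called, at 2.10-, 2.72-, 3.44- and 2.70-fold, as were 50 of 9852 genes (0.508%). Of the granule cell list's richest spots, 28.1%, 27.8%, 25.4% and 30.5% in libraries 1 to 4 were also among the neuroblast list's richest. Their overlap with the oligodendrocyte list's richest was 30.5%, 18.1%, 31.5% and 9.47%. The folds of Penk in these lists are thus not separate placements.

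The spots behind these Penk values were shallow. The median UMIs of granule cell-rich spots were 1951, 2725, 5280 and 6536 in libraries 1 to 4, against 8670, 7650, 9615.5 and 10128.5 in the rest, and those of neuroblast-rich spots were 1937, 2323, 4163.5 and 4799. With thinning before ranking, Penk was 2.31-, 2.41-, 2.23- and 1.39-fold higher in granule cell-rich spots, 2.13-, 2.76-, 2.61- and 1.502-fold in oligodendrocyte-rich spots and 1.43-, 1.66-, 2.65- and 1.93-fold higher in neuroblast-rich spots, and the neuroblast call was lost. Penk UMIs were present in 50.6%, 53.8%, 50.4% and 23.4% of thinned granule cell-rich spots and in 10.1%, 12.9%, 26.4% and 22.0% of thinned dopaminergic-rich spots. Library 4 was the one in which those shares did not differ beyond counting error, with intervals of 15.3 to 33.3 and 14.0 to 31.9. The 2 sets of spots were not separate in libraries 3 and 4, where 17.7% and 13.7% of the dopaminergic-rich spots were also granule cell-rich.

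In spots rich in forebrain excitatory markers Penk went the other way from Cck. It was 3.67- and 3.57-fold higher in the richest 10% of libraries 1 and 2, whose median depth was 1530 and 2399.5 UMIs, and 0.304- and 0.457-fold in libraries 3 and 4, where the median was 14931.5 and 14932 UMIs. With thinning before ranking the folds were 1.80, 2.76, 0.341 and 0.461. Of the richest forebrain spots, 52 of 167 in library 1 and 18 of 72 in library 2 were also among the richest granule cell spots, against 0 and 3 in libraries 3 and 4. Per 100 UMIs of the granule cell list, Penk had 7.93, 8.44, 7.83 and 6.05 UMIs. Its most similar genes were Gpsm1 (r at least 0.28), Inpp5j (0.27) and Camk2b (0.26).

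Tac1 encodes the precursor of substance P (ENSMUSG00000061762). It had 27, 8, 178 and 230 UMIs in libraries 1 to 4, or 2.03, 1.53, 14.2 and 24.1 CPM, a ratio of 15.8 (7.86 to 36.9). With a minimum of 200 UMIs in place of 500 it passed the filter and 7 of 10 members were over 2-fold, as were 1312 of 12072 genes (10.9%). Libraries 3 and 4 held nearly all of its UMIs, and oligodendrocyte-rich spots had 2.87- and 4.01-fold more of it there. One spot of library 4 held 19 Tac1 UMIs, together with 14 UMIs of Cort and 7 of Npy, while the next spot held 7, and without it the level in that library was 22.2 CPM. Markers of striatal projection neurons, some of which make Tac1, summed to only 25.9, 25.3, 38.4 and 39.1 CPM, and their part in the Tac1 values was not tested.

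Vip and Sst are known as peptides of scattered interneurons. Vip encodes vasoactive intestinal peptide (ENSMUSG00000019772), and was measured at 74.9 CPM (70.4 to 79.7), 67.2 (60.3 to 74.6), 75.0 (70.3 to 79.9) and 72.6 (67.3 to 78.2) in libraries 1 to 4. All 4 intervals overlapped, and the ratio of 1.12 (0.986 to 1.27) was the only one of the 10 whose interval held 1. Like Cck it was placed differently. Forebrain-marked spots carried 42.0% and 44.5% of the Vip UMIs of libraries 3 and 4, and outside them the levels were 75.1, 67.3, 60.1 and 56.9 CPM, a ratio of 1.32 (1.17 to 1.49).

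Sst encodes somatostatin (ENSMUSG00000004366), an inhibitory peptide of interneurons in the cortex, the anterior olfactory regions and the bulb. Its level was 27.7 CPM (24.9 to 30.6), 30.2 (25.7 to 35.3), 129 (122 to 135) and 171 (162 to 179) in libraries 1 to 4, 6.17-fold from lowest to highest. Libraries 1 and 2 overlapped, and library 4 was above library 3. Forebrain-marked spots held 56.9% and 56.8% of the Sst UMIs of libraries 3 and 4. Outside them the levels were 27.7, 29.0, 76.5 and 104 CPM, so that a 3.75-fold difference (3.30 to 4.27) was seen without those spots. Lhx6, a defining transcription factor of forebrain interneurons, was at 0 UMIs in libraries 1 and 2 and at 2.47 and 3.67 CPM in libraries 3 and 4. The other markers of that list, Nxph1 and Cort, were highest in library 1, at 70.7 and 28.3 CPM.

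Vip and Sst were unevenly spread over spots in every library. Their variance over spots beyond counting, relative to the squared mean at a given depth, was 2.21, 1.64, 4.58 and 4.07 for Vip and 3.55, 5.35, 4.56 and 6.68 for Sst in libraries 1 to 4. Both were above 1 in every library, as were 186 of 9852 genes (1.89%), and the median over genes lay between 0.127 and 0.159. No other member tested was above 1 in all 4, although Gal reached 3.65 and 5.18 in libraries 3 and 4, on 59 and 53 UMIs. Penk, with 0.405, 0.3303, 0.803 and 0.578, was spread far more evenly.

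**Figure D5:**
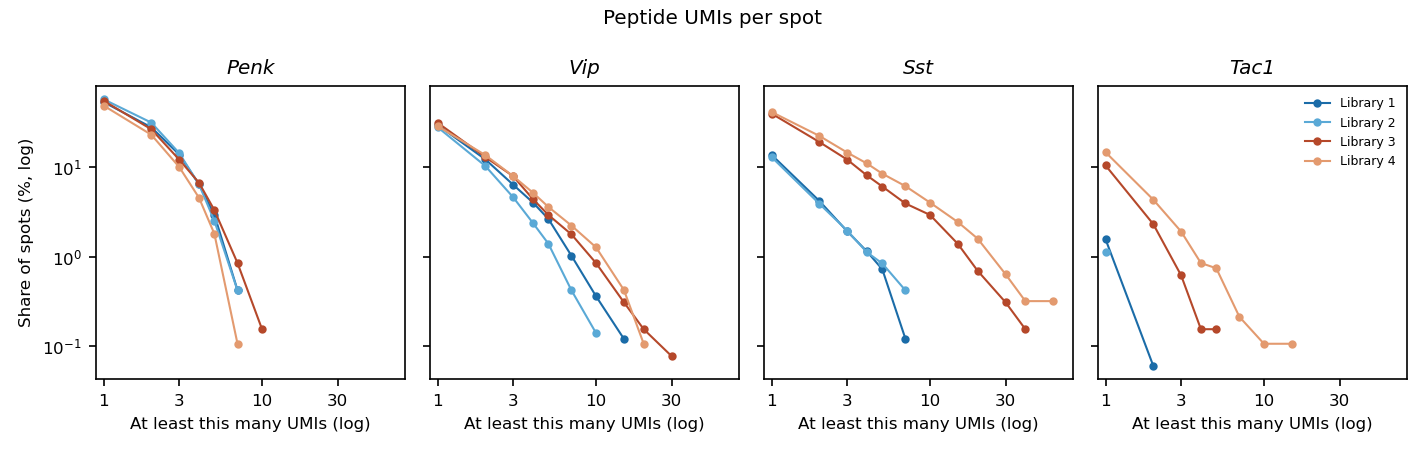
Share of spots, in percent on a log axis, that hold at least a given number of UMIs (horizontal log axis) of Penk, Vip, Sst and Tac1 in libraries 1 to 4, not corrected for depth. Penk ends at 14 UMIs or fewer in every library, whereas Vip reaches 39 in library 3 and Sst reaches 68 in library 4.

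Single spots held many Sst or Vip UMIs. The richest Sst spot had 68 UMIs in library 4 and 41 in library 3, and each of these spots also held 79 Npy UMIs. In libraries 1 and 2 the richest Sst spots had 7 and 8 UMIs. There were 38 spots with at least 10 Sst UMIs in each of libraries 3 and 4, of which 29 and 27 were forebrain-marked, and Npy was 2.24- and 3.44-fold higher in them than in the rest of the library. Npy encodes neuropeptide Y, which many cortical somatostatin cells also make. Gad1, which encodes a GABA-making enzyme, was lower in these spots, at 0.486- and 0.597-fold, and Cort was 0.838-fold in library 3 and 4.85-fold in library 4. These spots were deeper than the rest, with medians of 15042 and 14013 UMIs against 8939.5 and 9612.

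For Vip, 6, 1, 11 and 12 spots had at least 10 UMIs in libraries 1 to 4, of which 0, 0, 7 and 5 were forebrain-marked. Tac2, which encodes neurokinin B, was 4.77-fold (2.59 to 8.08), 8.68-fold (6.07 to 12.1) and 10.9-fold (7.49 to 15.5) higher in these spots of libraries 1, 3 and 4, and the 1 spot of library 2 held 2 Tac2 UMIs. Gad1 in these spots was 0.856-, 0.811-, 0.753- and 0.995-fold its level in the rest in libraries 1 to 4. Tac2 was also among the genes most like Vip over all spots (r at least 0.23), after Cck (0.25) and before Olfm1 (0.22). One spot of library 3, with 6121 UMIs in all, was at the same time the richest in Vip, with 39 UMIs, and in Penk, with 14 UMIs. For Sst, no gene reached a lowest r above 0.13. For Cck, the most similar genes were Olfm1 (r at least 0.54), Slc17a7 (0.53), which encodes the vesicular glutamate transporter VGLUT1, and Sncb (0.43).

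The receptors of these peptides were sparse. Of 22 receptor genes, 4 passed the filter, and 3 of these were over 2-fold between libraries, against 7.85% of all genes tested. They were Crhr1, Vipr2 and Npr1, each highest in library 2. Crhr1, the main receptor of corticotropin-releasing hormone, was measured at 81.8, 88.4, 39.7 and 33.1 CPM, Vipr2, a receptor of vasoactive intestinal peptide, at 20.8, 28.7, 13.3 and 8.18 CPM, and Npr1, the receptor of atrial natriuretic peptide, at 54.9, 55.1, 27.0 and 24.0 CPM. Each was thus lower in libraries 3 and 4, whereas its ligand was lower there for Crh and Nppa and level for Vip. Cckbr, a cholecystokinin receptor, stayed within 1.31-fold. Cckar, Nmbr and Sstr5 were at 0 UMIs in all libraries, where 3 UMIs would be 0.225 to 0.574 CPM.

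Of 17 genes that process, store or remove peptides, 15 passed the filter and 2 were over 2-fold, against 7.85% of all genes tested, both highest in library 1. Scg2, which encodes a granin of dense-core vesicles, was measured at 584, 542, 269 and 251 CPM, and Trhde, the enzyme that degrades thyrotropin-releasing hormone, at 21.1, 19.1, 10.2 and 11.1 CPM. The processing enzyme Cpe stayed within 1.10-fold and Pcsk2, a prohormone convertase, within 1.51-fold. Of 16 other peptide genes, 7 passed the filter and 0 were over 2-fold, a count that rests on no replicated test, and Npy, the one with the most UMIs, lay between 263 and 297 CPM.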

How the data were processed

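The deposited values are whole-number UMI counts per gene and spot in 1 pooled matrix, which per the file headers come from the authors' run of Space Ranger 1.3.1. The submitters' processing notes name GRCm39 as build, while read filters and scaling are not given in these sources. PCR copies are removed by UMIs.

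Spots were assigned to libraries 1 to 4 by the number at the end of the barcode. Since the numbers match no label, the planned ratio of control to mutant was not run, and libraries are not replicates. Spots under 500 UMIs were set aside, with 0.0680% of the UMIs. Levels are UMIs per 1000000 (CPM) with exact Poisson intervals, ratios have exact conditional binomial intervals and shares have Clopper-Pearson intervals, all at 95%. No test was run. Called means over 2-fold, among genes that reach 500 UMIs overall and 3 per library. Marker-rich spots are the richest 10% by a list's share of the spot's UMIs. Likeness is Pearson's r of log1p of counts per 10000 UMIs across spots, ranked by the lowest library, and the 3 highest genes are named, leaving out mitochondrial, ribosomal protein and unnamed gene models. Depth was equalised by thinning spots to 2000 UMIs. The named genes are the 10 members, genes of the receptor, processing, other-peptide and interneuron lists, and markers where a result turns on them. One listed marker is not reported here.

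Promoters are from RefSeq (GRCm38.p6), with 8 members matched by symbol, and Penk and Crh were not. The members and lists were chosen with earlier results of these data known. The calculations were tested on simulated data. Alternatives covered the gene and spot minimums, edgeR 4.0.16 TMM factors, DESeq2 1.42.0 size factors, the size of the rich set, thinning before ranking and leaving out each library. Python 3.11.15, NumPy 2.4.6, SciPy 1.17.1, pandas 2.3.3 and R 4.3.3 were used.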

Additional observations from a re-analysis of the deposited data

How the results depend on the processing

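The count of 6 members over 2-fold between libraries was unchanged under the other normalizations and spot minimums tried, was 7 of 10 with a minimum of 200 UMIs, and ranged from 4 to 6 when a library was left out. It was 4 of 7 members tested without library 1, where Gal and Crh no longer reached 500 UMIs. Of all genes tested, 6.12%, 6.88%, 5.66% and 5.61% were over 2-fold without libraries 1, 2, 3 and 4. That share was 10.9% with a minimum of 200 UMIs and 7.78% to 7.86% under the other normalizations and spot minimums. The count of 5 member and list pairs in marker-rich spots was 2 (Trh and Nppa in dopaminergic spots) when spots were thinned to 2000 UMIs before ranking, and the cause was not tested. It was 4 with the richest 5% of spots, where Crh was lost, and 4 with the richest 20%, where Penk was lost. It ranged from 5 to 7 with a library left out. Of the 27 most similar genes, 9 were shared with a ranking by Spearman's rho of thinned counts, and between 14 and 24 when a library was left out, with 14 without library 3. Of 100 member ratios recomputed, 17 moved by more than their counting interval. Without forebrain-marked spots, the highest and lowest library of Vip went from 3 and 2 to 1 and 4, and the lowest of Cck from 2 to 4. Shares of spots with a UMI depend on the thinning depth, and 108 of 120 moved. No paired analysis was possible because the libraries could not be tied to labelled samples. The split at 2000 CPM of forebrain markers was added after seeing the data. With 1 mouse per condition and no replicate error, low counts of Gal, Crh and Nppa in libraries 3 and 4, and of Tac1 in libraries 1 and 2, limit those folds.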

Other observations

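Over the unassigned libraries, the levels of several peptides fell into separate clusters. Trh (258, 258, 51.1 and 55.7 CPM in libraries 1 to 4), Gal (54.6, 52.1, 4.71 and 5.56), Nppa (72.5, 64.5, 8.14 and 9.13), Nmb (345, 291, 95.4 and 75.9) and Crh (51.5, 37.7, 13.48 and 9.34) were higher in libraries 1 and 2, and Sst (27.7, 30.2, 129 and 171) and Tac1 (2.03, 1.53, 14.2 and 24.1) in libraries 3 and 4. Over all spots, Vip (74.9, 67.2, 75.0 and 72.6) and Cck (1026, 843, 985 and 935) showed no such split. Outside forebrain-marked spots, however, Cck (1028, 844, 541 and 521) and Vip (75.1, 67.3, 60.1 and 56.9) were lower in libraries 3 and 4. Among the interneuron class genes, Calb1, which encodes the calcium-binding protein calbindin, was at 18.8, 19.9, 68.5 and 75.6 CPM, and Calb2 was at 943, 789, 416 and 435 CPM. Among the peptide genes below the filter, Grp, which encodes gastrin-releasing peptide, was measured at 0.150, 0.383, 7.58 and 5.98 CPM, and Pdyn, which encodes prodynorphin, at 3.31, 2.30, 9.81 and 15.8 CPM.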
